A study of Mus musculus with 9 samples.

Results

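The secreted Wnt antagonists described here are 10 mouse genes whose proteins act outside the cell to limit Wnt signalling: Wif1, Notum, Sfrp1, Sfrp2, Sfrp4, Frzb, Dkk1, Dkk2, Dkk3 and Dkk4. They were taken by symbol from the array's gene annotation, and all 10 were found, each on 1 probe set, among 19938 genes measured. Expression was profiled on Affymetrix Mouse Gene 1.0 ST arrays in 9 independent preparations from mouse back skin at postnatal day 4. The 4 SKP arrays (replicates 3, 4, 5 and 6) hold skin-derived precursor cells, which grow in culture as floating spherical colonies and were collected at primary passage. The 5 sorted arrays (replicates 2, 16, 17, 18 and 20) hold cells of Sox2:EGFP mice, taken straight from dissociated skin by flow sorting for EGFP and against the surface protein CD34, with no culture. Neither the strain used for the SKPs nor any pooling of animals is stated in the labels. The groups differ in culture, in sorting and in which cells were taken, and these cannot be told apart. In such bulk RNA, fewer cells of a type and less RNA per cell cannot be told apart either.

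Wnt proteins are lipid-modified signals that bind a Frizzled receptor together with the co-receptor Lrp5 or Lrp6 and stabilise beta-catenin. Wif1 and the secreted frizzled-related proteins (Sfrp1, Sfrp2, Sfrp4 and Frzb) bind Wnt proteins themselves, Notum is an esterase that removes the lipid Wnt proteins need for receptor binding, and Dkk1, Dkk2 and Dkk4 bind Lrp5 and Lrp6. Dkk3 is a divergent relative whose role in Wnt signalling is unsettled. In skin, Wnt signalling starts hair follicle development and the growth phase of the hair cycle, and the dermal papilla, a mesenchymal condensation under the follicle that Sox2 marks in neonatal skin, both sends and receives such signals.

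Promoter sequence was in the RefSeq table (build GRCm38.p6) for 5 of the 10 genes, Wif1, Dkk1, Dkk2, Sfrp2 and Frzb. Shown are the 250 bases before the start site of Wif1, the member with the largest difference, of Frzb, a Wnt-binding member with a match, of Dkk2, the member that rose in SKPs, and of Dkk1, a textbook Wnt target. Capitals mark matches on either strand to CTTTGA or CTTTGT, the core that the Wnt effectors of the TCF and LEF family bind.
Wif1, chr10:121033754-121034003, plus strand: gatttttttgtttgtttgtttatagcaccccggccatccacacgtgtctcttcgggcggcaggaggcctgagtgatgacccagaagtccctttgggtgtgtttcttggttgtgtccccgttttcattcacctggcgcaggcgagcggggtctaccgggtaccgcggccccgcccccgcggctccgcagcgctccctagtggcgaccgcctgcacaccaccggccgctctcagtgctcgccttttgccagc
Frzb, chr2:80447397-80447646, minus strand: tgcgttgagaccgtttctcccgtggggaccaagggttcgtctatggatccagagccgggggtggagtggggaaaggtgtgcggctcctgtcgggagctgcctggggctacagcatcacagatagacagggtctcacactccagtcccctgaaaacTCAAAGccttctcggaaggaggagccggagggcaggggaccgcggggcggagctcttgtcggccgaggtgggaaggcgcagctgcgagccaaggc
Dkk2, chr3:132085042-132085291, plus strand: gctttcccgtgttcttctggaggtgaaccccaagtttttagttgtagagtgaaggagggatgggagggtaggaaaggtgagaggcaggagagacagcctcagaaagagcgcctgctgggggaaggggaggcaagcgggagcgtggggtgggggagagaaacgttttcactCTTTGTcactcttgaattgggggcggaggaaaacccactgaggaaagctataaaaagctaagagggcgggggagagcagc
Dkk1, chr19:30549497-30549746, minus strand: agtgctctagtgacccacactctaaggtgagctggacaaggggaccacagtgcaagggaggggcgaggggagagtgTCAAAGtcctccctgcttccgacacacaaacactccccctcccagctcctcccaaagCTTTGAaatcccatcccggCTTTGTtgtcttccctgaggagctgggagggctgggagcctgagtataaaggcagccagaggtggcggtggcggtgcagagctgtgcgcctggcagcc
The Wif1 window held 0 matches, as did that of Sfrp2. Frzb held 1 match to CTTTGA (95 bases before the start, opposite strand) and Dkk2 1 match to CTTTGT (80 bases before it). Dkk1 held 3, namely CTTTGA at 174 bases (opposite strand) and at 117 bases before the start and CTTTGT at 98 bases, none overlapping another. Of 32851 promoter windows of the same length, 27.6% held at least 1 of these cores (13.8% CTTTGA and 16.5% CTTTGT), so a match is a description of the letters only.

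Levels are log2 RMA values, so a difference of 1 is a doubling, and levels of different genes are not set against each other because each probe set binds differently. No detection calls were used. As a guide, 95% of the values of 1194 olfactory and vomeronasal receptor genes, which are not expected in skin, lay at or under 6.11, and values up to there are called not above background. Sorted replicates 2 and 20 stood apart from replicates 16, 17 and 18. Cd34, selected against in the sort, was at 11.14 to 11.62 in SKPs, at 10.19 on sorted replicate 2, at 10.27 on sorted replicate 20 and at 7.31 to 7.82 on the remaining sorted arrays, and Sox2 lay between 5.78 and 6.41 in SKPs and between 8.24 and 9.25 on the sorted arrays. Results are therefore also given without replicates 2 and 20, a choice made with the data seen.

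Of the 10 antagonists, Wif1, Sfrp1 and Notum were lower and Dkk2 higher in SKPs than in the sorted cells (limma, adjusted p under 0.05 over all 19938 genes), and 6 were not called. Over all genes, 16.9% were lower and 20.2% higher, 37.0% in all. All 4 called members differed by at least 2-fold, 3 lower and 1 higher, and over all genes 11.7% did so, 6.25% lower and 5.46% higher. The groups did not overlap in 5 of the 10 members, against 34.0% of all genes. The median log2 fold change (SKP minus sorted) was -0.81 over the 10 members and 0.07 over all genes. Without sorted replicates 2 and 20, Sfrp2 and Frzb were called lower too, giving 5 lower and 1 higher against 21.1% and 25.4% of all genes (46.5% in all), with a median of -0.76. The 3 members called lower with all arrays were Wnt-binding or Wnt-modifying proteins, but 3 of the 4 Sfrp and Frzb genes were not called there. Of the 4 Dkk genes 0 were called lower in either fit. However, Dkk3 lay lower on every SKP array (limma adjusted p = 0.0563) and was called lower in 2 of 17 alternatives.

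**Figure D1:**
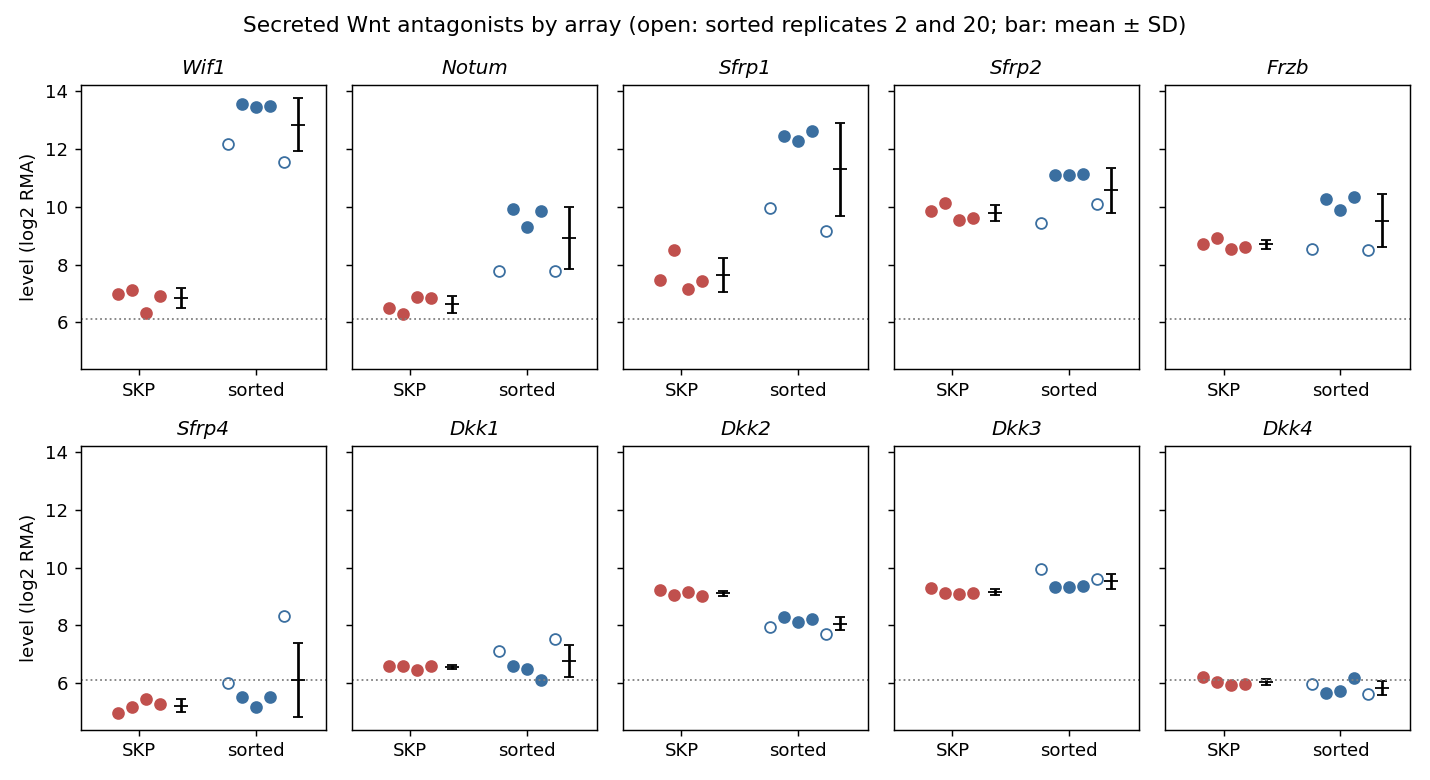
Level of each of the 10 antagonists (log2 RMA) on the 4 SKP arrays (red) and the 5 sorted arrays (blue, open for replicates 2 and 20), with mean and SD as bars. The dotted line is the background guide of 6.11. Wif1, Sfrp1 and Notum sit lower on every SKP array than on any sorted array, Dkk2 sits higher, and the open circles of Sfrp2 and Frzb lie near the SKP values.

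Wif1, the Wnt inhibitory factor, which binds Wnt proteins through its WIF domain, was the member with the largest difference. Its log2 levels were 6.99, 7.11, 6.33 and 6.91 in SKPs (replicates 3 to 6), against 12.19, 13.58, 13.45, 13.48 and 11.54 in sorted cells (replicates 2, 16, 17, 18 and 20). All SKP values were a little above the background guide and the sorted values were bright throughout, with replicates 2 and 20 the lowest of the 5. The mean was 6.83 ± 0.35 in SKPs (SD, n = 4) and 12.85 ± 0.93 in sorted cells (n = 5). This is a 64.7-fold lower level (95% confidence interval 33.8 to 124, limma adjusted p = 3.42e-06). With sorted replicates 2 and 20 left out it was 102-fold lower (limma adjusted p = 2.63e-08). As the SKP level is near background, these folds are approximate.

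Notum, the esterase, was also lower on every SKP array. Its levels were 6.51, 6.28, 6.86 and 6.84 in SKPs, against 7.78, 9.92, 9.32, 9.85 and 7.78 in sorted cells in the same replicate order. The sorted values split into 3 high arrays and the pair 2 and 20, whose deposited values were identical, and that pair still lay above all SKP arrays. Lef1 and Wnt11, described below, also had identical deposited values on that pair. Notum averaged 6.62 ± 0.28 in SKPs and 8.93 ± 1.08 in sorted cells, a 4.94-fold lower level (95% confidence interval 2.37 to 10.3, limma adjusted p = 0.00344). Without replicates 2 and 20 it was 8.42-fold lower (limma adjusted p = 2.79e-06). The SKP level of Notum is also near background, so both folds are approximate.

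Porcn and Wls, which add the lipid that Notum removes and carry Wnt proteins to the cell surface, changed in opposite directions. Porcn was 1.81-fold lower in SKPs (7.00 ± 0.17 against 7.86 ± 0.14 in sorted cells, limma adjusted p = 1.44e-04). Wls was 1.93-fold higher (11.90 ± 0.07 in SKPs against 10.96 ± 0.13 in sorted cells, limma adjusted p = 1.70e-05). The groups did not overlap for either gene.

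The secreted frizzled-related proteins share a cysteine-rich domain with the Frizzled receptors, and of Sfrp1, Sfrp2, Sfrp4 and Frzb, only Sfrp1 passed the test with all arrays. Sfrp1 was at 7.47, 8.51, 7.17 and 7.44 in SKPs, against 9.95, 12.47, 12.29, 12.61 and 9.18 in sorted cells. SKP replicate 4 was the highest of its group and sorted replicate 20 the lowest of the other, and a gap remained between them. The mean was 7.65 ± 0.59 in SKPs and 11.30 ± 1.61 in sorted cells, a 12.6-fold lower level (95% confidence interval 4.11 to 38.5, limma adjusted p = 0.00273). Without replicates 2 and 20 it was 28.0-fold lower (limma adjusted p = 2.31e-06).

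Sfrp2 and Frzb, both secreted by mesenchymal cells, overlapped between the groups on the same pair of arrays. Sfrp2 was at 9.85, 10.15, 9.53 and 9.61 in SKPs, against 9.43, 11.11, 11.09, 11.13 and 10.11 in sorted cells. Replicate 2 lay below every SKP array and replicate 20 among them, whereas replicates 16, 17 and 18 were close together (SD 0.02) and lay above all SKPs. With all arrays its log2 fold change was -0.79 (95% confidence interval -1.57 to -0.01, limma adjusted p = 0.107), and without the pair it was -1.33 (2.51-fold lower, limma adjusted p = 7.02e-05). Leaving out replicate 2 alone was enough for the call (-1.08, limma adjusted p = 0.00780).

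Frzb was at 8.71, 8.93, 8.53 and 8.62 in SKPs, against 8.55, 10.28, 9.89, 10.36 and 8.52 in sorted cells. Here replicates 2 and 20 were at SKP level and the other 3 were higher. The log2 fold change was -0.82 (95% confidence interval -1.71 to 0.07, limma adjusted p = 0.139) with all arrays and -1.48 (2.78-fold lower, limma adjusted p = 2.93e-05) without the pair. It was called with either array of the pair left out (-1.06 and limma adjusted p = 0.0474 without replicate 2, -1.07 and 0.0363 without replicate 20).

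Sfrp4 behaved differently from its relatives. Its levels were 4.96, 5.19, 5.47 and 5.29 in SKPs, against 6.01, 5.53, 5.16, 5.51 and 8.31 in sorted cells. All SKP arrays and 4 of the 5 sorted arrays were not above background, and sorted replicate 20 alone was. The log2 fold change was -0.88 (95% confidence interval -2.11 to 0.35, limma adjusted p = 0.246), and -0.18 (limma adjusted p = 0.345) without replicates 2 and 20.

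**Figure D2:**
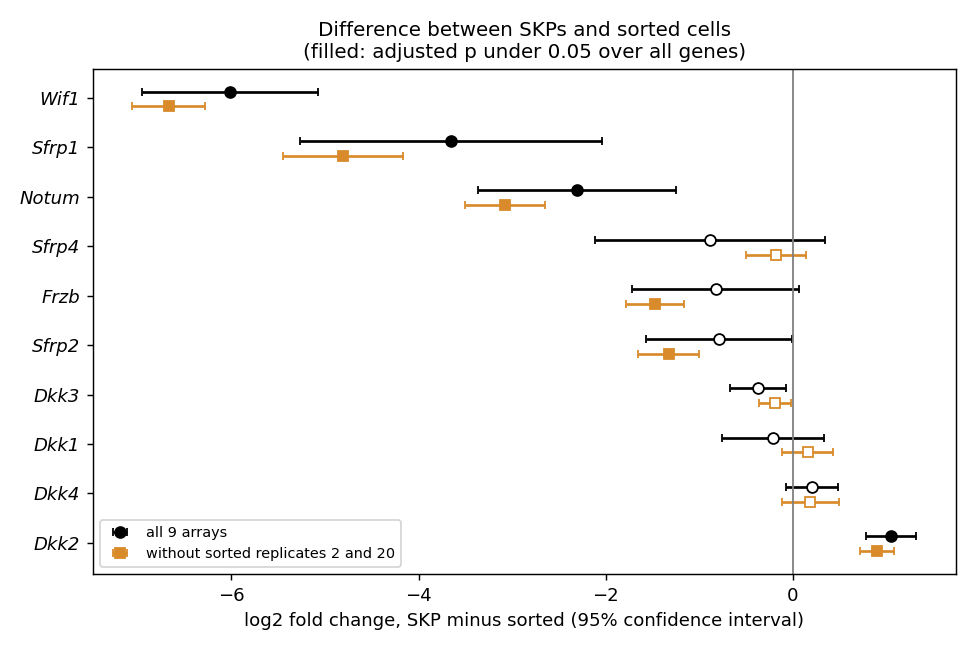
Log2 fold change, SKP minus sorted, with 95% confidence interval for each antagonist, with all 9 arrays (black circles) and without sorted replicates 2 and 20 (orange squares). Filled symbols have an adjusted p under 0.05 over all genes. Sfrp2 at -0.79 and Frzb at -0.82 are open with all arrays and filled without the pair, and Dkk2 alone is filled on the positive side.

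Among the Dickkopf genes, whose proteins act on the Lrp co-receptors, Dkk2 was the member called, and it was higher in SKPs. Dkk2 inhibits Wnt signalling in some settings and can activate it in others. It was at 9.22, 9.04, 9.16 and 9.03 in SKPs, against 7.94, 8.29, 8.13, 8.21 and 7.72 in sorted cells. The groups did not overlap, with the SKPs closer together than the sorted arrays, of which replicates 2 and 20 were lowest. The mean was 9.11 ± 0.09 in SKPs and 8.06 ± 0.23 in sorted cells, a 2.08-fold higher level (95% confidence interval 1.73 to 2.50, limma adjusted p = 8.00e-05), and 1.87-fold higher without replicates 2 and 20 (limma adjusted p = 2.17e-05).

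Dkk3 was at 9.30, 9.11, 9.10 and 9.12 in SKPs, against 9.96, 9.34, 9.33, 9.38 and 9.61 in sorted cells. The groups did not overlap, yet sorted replicates 16, 17 and 18 lay just above SKP replicate 3. The log2 fold change of -0.37 (95% confidence interval -0.67 to -0.07) did not pass over all genes (limma adjusted p = 0.0563). Without replicates 2 and 20 it was -0.19 (limma adjusted p = 0.0657).

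Dkk1, a Wnt-induced feedback inhibitor whose forced production in mouse epidermis blocks follicle formation, was at 6.59, 6.59, 6.44 and 6.59 in SKPs, against 7.11, 6.59, 6.49, 6.10 and 7.52 in sorted cells. The 3 highest SKP values and that of sorted replicate 16 were the same deposited number, and the 2 highest sorted values were those of replicates 2 and 20. The log2 fold change was -0.21 (95% confidence interval -0.76 to 0.34, limma adjusted p = 0.547), and 0.16 (limma adjusted p = 0.317) without the pair, so no direction is given. Dkk4, which is known from follicle placodes, lay between 5.95 and 6.20 in SKPs and between 5.64 and 6.18 in sorted cells. Only 1 array of each group was above background, and the log2 fold change was 0.21 (95% confidence interval -0.07 to 0.48, limma adjusted p = 0.226).

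With replicates 2 and 20 included, the members varied more among the sorted arrays than among SKPs. The SD was then larger in the sorted group for 10 of 10 members, against 60.6% of all genes. Without the pair it was smaller than in SKPs for Wif1 (0.07 against 0.35), Sfrp1 (0.16 against 0.59) and Sfrp2 (0.02 against 0.28). It was also smaller for Dkk2 and Dkk3 and near equal for Sfrp4 (0.21 in both groups). It stayed larger for Dkk1 (0.26 against 0.07), Dkk4 (0.29 against 0.12), Frzb (0.25 against 0.17) and Notum (0.33 against 0.28). With all arrays, the median SD over the members was 0.19 in SKPs and 0.84 in sorted cells. Over all genes it was 0.14 in SKPs and 0.17 in sorted cells. Replicates 2 and 20 both lay below replicates 16, 17 and 18 for 6 members (Wif1, Notum, Sfrp1, Sfrp2, Frzb and Dkk2), which 26.1% of all genes did. Replicates 2 and 20 both lay above replicates 16, 17 and 18 by deposited value for 3 members (Dkk1, Dkk3 and Sfrp4). Of all genes, 22.6% did so. Sfrp4 was above background on replicate 20 alone. Its value on replicate 2 (6.01) therefore cannot be ordered against replicates 16, 17 and 18. Dkk4 showed neither pattern of the pair. The member lowest relative to the sorted mean was Sfrp1 on replicate 20, 2.12 log2 units below it.

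Markers of several skin cell types moved with these arrays, and their part in the results was not tested. The mean level of 13 dermal papilla markers, such as Alpl and Corin, ranged from 7.62 to 7.74 in SKPs. Among the sorted arrays it was 10.40 on replicate 2, 9.89 on replicate 20 and 11.05 to 11.16 on replicates 16, 17 and 18. Of them 12 were lower in SKPs and 0 higher, with Prom1 and Rspo2 not above background on any SKP array, and Tbx18 was not called. Without replicates 2 and 20, 12 were lower and 1 higher, namely Tbx18 (log2 fold change 0.25, limma adjusted p = 0.0392). The mean of 12 hair shaft and matrix markers was 5.90 to 6.32 in SKPs, 7.44 and 7.18 on replicates 2 and 20, and 9.95 to 10.15 on the other 3, and 9 of the 12 were lower in SKPs. Of these Krt28, Krt71 and Hoxc13 were not above background on any SKP array. Among the sorted arrays, these lists were lowest on replicates 2 and 20, as were Wif1, Notum, Sfrp1, Sfrp2 and Frzb, and also Dkk2, which was higher in SKPs.

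Other lists ran the other way among the sorted arrays. The mean of 14 keratinocyte markers was 6.39 to 6.70 in SKPs, 10.09 on sorted replicate 2, 11.64 on sorted replicate 20 and 9.30 to 9.46 on the remaining sorted arrays, and 14 of 14 were lower in SKPs, Krt1 being not above background there. The mean of 12 dermal fibroblast markers was 10.95 to 11.16 in SKPs, 10.83 and 11.18 on replicates 2 and 20 and 9.83 to 9.90 on the other 3, with 6 markers higher and 1 lower in SKPs. The mean of 6 endothelial markers was 6.15 to 6.61 in SKPs, 7.04 and 7.71 on replicates 2 and 20 and 6.16 to 6.28 on the other 3, with 0 higher and 1 lower (2 higher and 1 lower without that pair). Dkk1 and Dkk3 were highest on the same pair of sorted arrays, and Sfrp4 on replicate 20. Immune cell markers were higher in SKPs in 8 of 10 cases (mean 7.02 to 8.46 in SKPs and 5.93 to 6.29 in sorted cells). Melanocyte (5 of 7 lower, 1 higher), Schwann cell (6 of 6 lower) and pericyte and smooth muscle markers (6 of 8 lower, 0 higher) were mostly lower, and 0 of 5 Merkel cell markers were called.

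**Figure D3:**
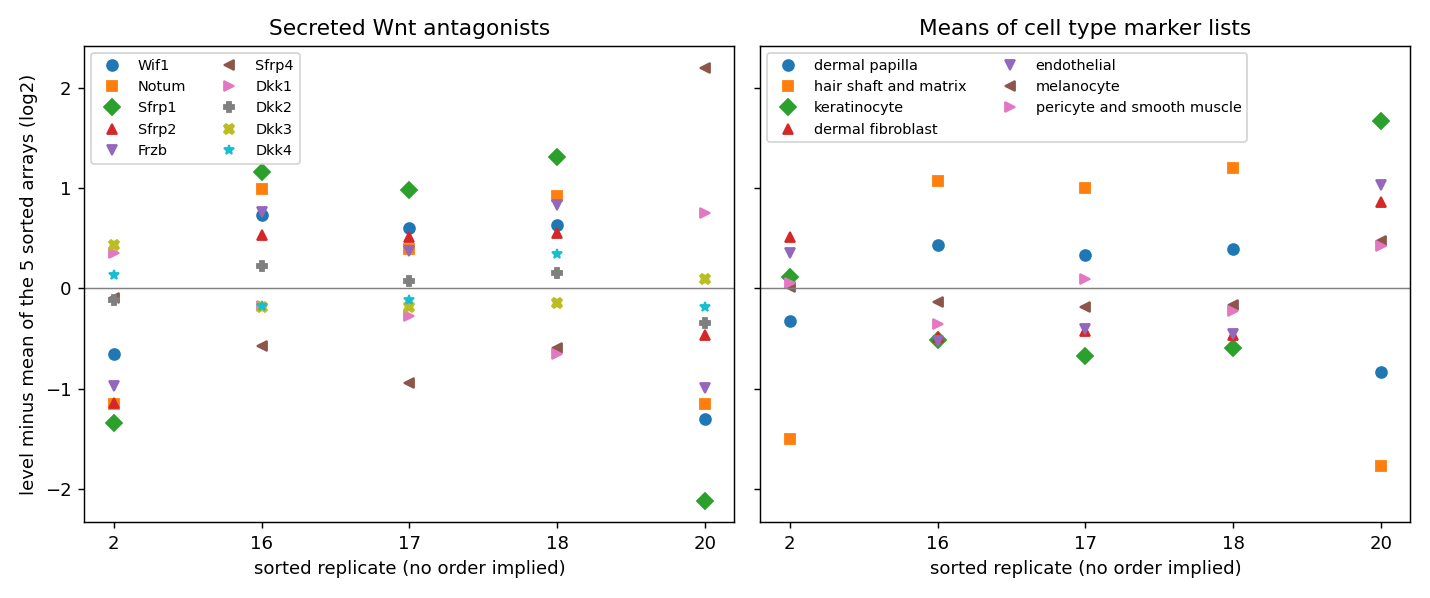
Level on each of the 5 sorted arrays minus the mean of the 5 (log2), for the 10 antagonists (left) and for the means of 7 cell type marker lists (right). On replicates 2 and 20 Sfrp1, Notum, Frzb, Wif1, Sfrp2 and Dkk2 lie below 0 together with the dermal papilla and hair shaft lists, while Dkk1 and the keratinocyte, fibroblast and endothelial lists lie above 0.

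The genes whose profile over the 9 arrays was most like each called member were found by the root-mean-square difference of centred log2 levels, as a description. For Wif1 they were Corin (0.34), Lepr (0.36) and Hey2 (0.37), which encode a papilla protease, the leptin receptor and a Notch target. Lepr and Hey2, and Lrrc4c named for Notum, were not above background on any SKP array, so their distances rest on levels in SKPs that cannot be ordered. For Sfrp1 they were Dio2 (0.33), an enzyme that activates thyroid hormone, Scube1 (0.36) and Ndnf (0.37). For Notum they were Lrrc4c (0.23), Msx2 (0.27), a homeobox gene of the hair matrix and papilla, and Bambi (0.27), a BMP pseudoreceptor. Msx2 lay between 5.85 and 6.21 in SKPs, partly under the background guide, so its distance rests in part on levels that cannot be ordered. For Dkk2, whose difference is small and shared by many genes, they were Sh2b3, Mpv17 and Snx8 (all 0.09). Among the antagonists themselves, Sfrp1 and Notum were the closest pair of called members (0.93), and Wif1 and Sfrp1 differed by 1.29. Frzb (0.79) and Sfrp2 (0.88), not called with all arrays, were closer to Notum than Sfrp1 was.

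Genes that work with or against these antagonists were counted in 8 lists holding 71 measured genes. Of these 32 were lower in SKPs and 4 higher (45.1% and 5.63%), against 16.9% and 20.2% of all genes. Without sorted replicates 2 and 20 there were 37 lower and 7 higher, against 21.1% and 25.4% of all genes in that fit. Of 9 other extracellular Wnt inhibitors 4 were lower and 1 higher, with a median log2 fold change of -0.33. Sostdc1, which binds Lrp co-receptors and BMPs, was 32.9-fold lower (6.28 ± 0.27 in SKPs, 11.32 ± 0.62 in sorted cells, limma adjusted p = 9.61e-07). On SKP replicate 5 it was not above background (5.95), and the other SKP arrays were at 6.18 to 6.53. The Sostdc1 fold is therefore approximate. Apcdd1, a membrane inhibitor mutated in a hereditary hair loss of humans, was 5.27-fold lower (10.02 ± 0.59 in SKPs, 12.42 ± 0.75 in sorted cells, limma adjusted p = 8.67e-04). Tpbg, a membrane protein that inhibits Wnt signalling in zebrafish, was 3.25-fold higher (11.12 ± 0.27 in SKPs, 9.42 ± 0.54 in sorted cells, limma adjusted p = 5.33e-04).

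The co-receptors that Dkk proteins and Sostdc1 bind were mostly lower in SKPs. Of 5 such genes 3 were lower and 0 higher (median -0.39), and Kremen1 and Kremen2, which bind Dkk1 and Dkk2, were not called with all arrays. Without sorted replicates 2 and 20, 4 were lower and 0 higher. Kremen1 was called lower there (log2 fold change -0.48, limma adjusted p = 0.00263), and Kremen2 was not called. Lrp6 was 2.57-fold lower (9.68 ± 0.15 in SKPs, 11.05 ± 0.32 in sorted cells, limma adjusted p = 1.02e-04). Lrp4, a receptor for sclerostin and Sostdc1, was 3.26-fold lower (7.00 ± 0.19 in SKPs, 8.71 ± 0.32 in sorted cells, limma adjusted p = 2.75e-05). Of 6 glypicans, cell surface proteoglycans that bind Wnt proteins, Gpc3 was 10.3-fold lower (8.08 ± 0.49 in SKPs, 11.44 ± 0.55 in sorted cells, limma adjusted p = 1.81e-05) and Gpc6 1.57-fold higher (limma adjusted p = 0.00348), with a median of 0.12. Without replicates 2 and 20, Gpc1 was called higher as well (1.71-fold, limma adjusted p = 0.00292, named after its values were seen).

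Most Wnt ligands were not called. Of 19 Wnt genes 4 were lower and 0 higher (median -0.17). Without sorted replicates 2 and 20, 5 were lower and 2 higher, Wnt2 (2.85-fold, limma adjusted p = 0.00746) and Wnt7b (1.75-fold, limma adjusted p = 0.00204), both named after their values were seen. Wnt1 and Wnt8b were not above background on any array. Wnt11 was 2.58-fold lower (7.47 ± 0.19 in SKPs, 8.84 ± 0.40 in sorted cells, limma adjusted p = 3.48e-04) and Wnt5a 2.04-fold lower (9.81 ± 0.09 in SKPs, 10.83 ± 0.17 in sorted cells, limma adjusted p = 3.07e-05), both ligands known mainly for beta-catenin-independent signalling. Of 13 receptors 6 were lower and 0 higher (median -0.49), led by Fzd10 (6.38-fold, limma adjusted p = 2.99e-05) and Fzd6 (5.12-fold, limma adjusted p = 1.42e-05). Of 7 R-spondins and Lgr receptors, which amplify Wnt signals, 6 were lower and 0 higher (median -2.37). Rspo2 was not above background on any SKP array (5.26 to 5.74) and averaged 10.64 in sorted cells, so against the background guide it was at least 23.0-fold lower in SKPs, and at least 44.6-fold lower without replicates 2 and 20 (limma adjusted p = 8.45e-05 and 7.08e-09). Rspo3 was 17.0-fold lower with all arrays and 26.6-fold lower without the pair (limma adjusted p = 2.91e-05 and 1.27e-08). Both are also in the dermal papilla list. Rspo4, chosen after its values were seen, was not called with all arrays (log2 fold change -1.02, limma adjusted p = 0.504) and was called without the pair (-2.84, limma adjusted p = 4.17e-05).

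Of 10 Wnt targets and feedback genes 7 were lower and 1 higher (median -1.70). Lef1, an effector of the pathway that is also its target, was 8.51-fold lower (7.81 ± 0.17 in SKPs, 10.90 ± 0.89 in sorted cells, limma adjusted p = 1.65e-04), or 13.4-fold lower without replicates 2 and 20. Bambi was 6.71-fold lower (7.35 ± 0.20 in SKPs, 10.10 ± 1.01 in sorted cells, limma adjusted p = 7.87e-04), or 11.2-fold lower without them. Ccnd1, the cyclin D1 gene and a cell cycle gene with many inputs, was 2.82-fold higher (11.69 ± 0.38 in SKPs, 10.19 ± 0.39 in sorted cells, limma adjusted p = 5.09e-04).

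**Figure D4:**
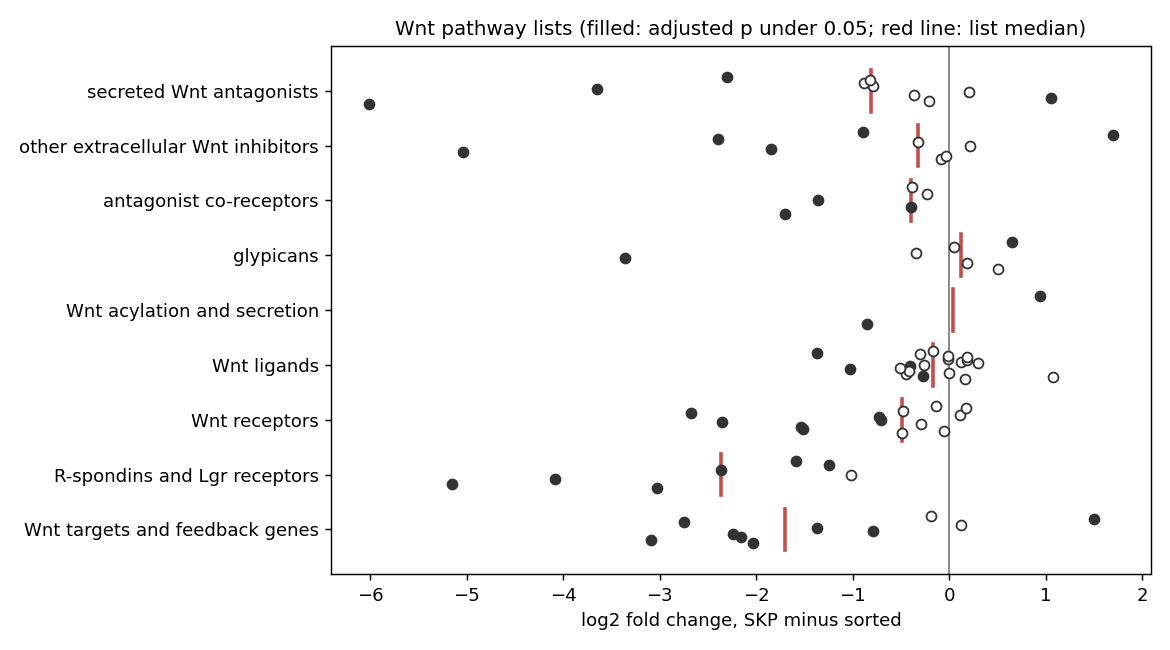
Log2 fold change, SKP minus sorted, of each measured gene in the antagonist family and in 8 Wnt pathway lists (filled: adjusted p under 0.05 over all genes; red line: list median). The R-spondin list has its median at -2.37 and the target list at -1.70, while most Wnt ligands are open symbols near 0.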

How the data were processed

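The authors deposited log2 RMA values, 1 per probe set and array, and per the submitters' processing notes they used RMA, Affymetrix Expression Console and limma. Versions and settings are not given in the sources used here. RMA adjusts background, quantile-normalizes arrays and summarises probes, so changes shared by most genes are removed. Of 35556 probe sets, 21789 had 1 gene symbol. For genes with several probe sets the one with the highest mean was kept, giving 19938 genes.

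SKP minus sorted was tested with limma 3.58.1 in R 4.3.3 (lmFit, eBayes, two-sided, Benjamini-Hochberg over all genes, called at 0.05). Confidence intervals are unadjusted, SDs are over arrays, and the number of arrays limits precision. The fit was tested on simulated normal values with the same SD per gene in both groups and no arrays set apart. It was not tested on unequal spread such as that of these data. Members, lists, the naming rule (all members, the 2 called genes of largest fold per list and direction, the 3 nearest profiles per member called at 2-fold) and alternatives were chosen with earlier results of these data known. Tcf7 and 5 marker genes were not analysed here. Alternatives changed the normalization, centring, low-level filter, probe set choice, variance model or array weights, or left arrays out. Whole pathway lists were counted, with no set test. Figures were drawn with matplotlib 3.10.9.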

Additional observations from a re-analysis of the deposited data

Results flagged for a closer look

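Within a group of arrays, 10 of 78 sets of values (39 named genes in 2 groups) had a highest or lowest array far from the rest by Dixon's gap test, which chance does in about 1 of 20 sets. In SKPs, Dkk1 was at 6.44 on replicate 5 and at 6.59 on the other 3. Those 3 deposited values are identical, so any differing value on replicate 5 would have been flagged. Dkk3 was at 9.30 on replicate 3 and at 9.10 to 9.12 on the others. Lef1 was at 7.56 on replicate 4 (others 7.86 to 7.92) and Bambi at 7.64 on replicate 5 (others 7.22 to 7.27). On sorted replicate 20, Sfrp4 was at 8.31 (others 5.16 to 6.01), Lrp4 at 9.27 (others 8.51 to 8.66) and Fzd6 at 9.95 (others 8.91 to 9.07). On the same array Lrp6 was at 10.48 (others 11.12 to 11.27) and Porcn at 7.61 (others 7.87 to 7.95). Fzd10 was at 8.51 on sorted replicate 2 (others 9.57 to 9.85).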

How the results depend on the processing

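No paired analysis was possible because the groups share no replicate number. Wif1, Sfrp1, Notum and Dkk2 kept their call and direction in all 17 alternatives, with log2 fold changes of -6.67 to -5.83, -4.81 to -3.32, -3.07 to -2.06 and 0.90 to 1.13. The count of members called lower was 3, but 5 with array weights and 5 without sorted replicates 2 and 20 (added with the data seen), and 3 to 5 with 1 array left out. Dkk1 turned to 0.10 with array weights and 0.16 without that pair. Sfrp2 (-1.26) and Frzb (-1.38) were called with array weights, and Dkk3 after quantile normalization (-0.38, adjusted p = 0.0385) and without the lowest 33.3% of genes (-0.37, adjusted p = 0.0445). That filter removed Dkk4 and Sfrp4. Pathway genes called higher numbered 4, but 6 after quantile normalization, 6 after median centring, 9 with array weights, 7 without the pair and 4 to 7 with 1 array left out. The other 31 named genes kept call and direction in each alternative they were run in, all 17 except for Lrrc4c (16), which the filter removed. Median centring moved the median log2 fold change of all genes to 0.14, against 0.07 as deposited, and 3 members lower and 1 higher were called there. The cause of these changes was not tested. Values at or under 6.11 cannot be ordered, and folds against a group near that level are approximate.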
